A study of Mus musculus with 4 samples.

Results

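The neuregulin genes Nrg1, Nrg2, Nrg3 and Nrg4 and the ErbB receptor genes Egfr, Erbb2, Erbb3 and Erbb4 were followed across the cell classes of the adult mouse hippocampus. The 8 genes were listed by name and found by Ensembl identifier among the 55422 genes of the count matrices. Single nuclei of hippocampal tissue were profiled by droplet RNA sequencing in 2 Control libraries from Kat6a-f/f mice and 2 Kat6a-cKO libraries from NEX-cre, Kat6a-f/f mice. Both groups carry floxed Kat6a, a gene for a histone acetyltransferase, and they differ by NEX-cre, a Cre recombinase expressed from the Neurod6 locus of excitatory forebrain neurons. The labels say adult without giving an age, and no group with NEX-cre and unfloxed Kat6a was analysed here. The labels call the libraries replicates but do not say that they came from separate animals, so each p-value measures the spread between these 4 libraries only.

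Neuregulins are growth factors that carry an EGF-like domain and are mostly made as membrane-bound precursors, which proteases cut. They bind the receptors ErbB3 and ErbB4, whereas EGFR binds EGF and related ligands, and ErbB2 has no known ligand of its own and signals as a dimer partner. In the forebrain ErbB4 is best known from GABAergic interneurons, and ErbB3 and ErbB4 are also studied in the oligodendrocyte lineage.

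Protein stretches of 7 of the 8 members, all but Nrg2, are shown here as the coding bases that encode them, 5′ to 3′ along the transcript, from GENCODE M21 transcripts of GRCm38. For the ligands the stretch runs from the first to the last cysteine codon of the EGF-like domain, the receptor-binding part, and the capitals mark the 6 cysteine codons. Nrg1 transcripts carry either of 2 ends of this stretch, which is why both are shown: form 1 was in 7 of 10 annotated transcripts with the stretch and form 2 in 3.
Nrg1 form 1: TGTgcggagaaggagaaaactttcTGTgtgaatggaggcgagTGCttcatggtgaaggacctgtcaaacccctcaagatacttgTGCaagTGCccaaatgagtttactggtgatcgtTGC
Nrg1 form 2: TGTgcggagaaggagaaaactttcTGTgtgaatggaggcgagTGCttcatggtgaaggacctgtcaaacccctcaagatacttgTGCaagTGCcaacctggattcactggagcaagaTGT
Nrg3: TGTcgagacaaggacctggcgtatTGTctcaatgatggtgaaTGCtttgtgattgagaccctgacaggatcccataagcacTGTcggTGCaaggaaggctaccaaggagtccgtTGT
Nrg4: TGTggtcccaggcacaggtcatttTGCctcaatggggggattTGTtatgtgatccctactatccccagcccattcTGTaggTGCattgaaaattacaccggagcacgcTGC
The Nrg1 forms were identical over their first 94 bases and at 108 of 120 bases in all. The counts were given per gene, so the Nrg1 levels below sum both forms and cannot tell them apart. All the ligands shown keep the 6 cysteine codons, although the stretch is 120 bases long in Nrg1, 117 in Nrg3 and 111 in Nrg4.

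The receptors are shown by the 24 bases that encode the catalytic loop of the kinase domain. ErbB3 is a receptor with weak kinase activity, and whether this loop has a part in that was not tested. The capitals mark the sixth codon, at which the residue encoded by Erbb3 differs from the one that Egfr, Erbb2 and Erbb4 share.
Egfr: caccgtgacttggcaGCCaggaat
Erbb2: cacagggacctagctGCCcgaaac
Erbb3: catagggaccttgcgCTCcggaat
Erbb4: catcgggatctggcaGCCcgcaat
Egfr and Erbb4 matched at 18 of these 24 bases, Egfr and Erbb2 at 16, and Egfr and Erbb3 at 15. Each of the remaining pairs matched at 17.

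The libraries held between 171323466 and 186897245 UMI counts in all, a UMI being a tag that counts each captured molecule once. Between 7911 and 8442 barcodes per library had at least 5000 UMIs, the minimum used for neurons, and between 10194 and 11521 had at least 1000, the minimum used for glia. Any pair of libraries shared 27 to 35 of the barcodes with at least 1000 UMIs. Levels are given as CPM, the UMIs of a gene per 1000000 UMIs summed over the nuclei of a class in a library. Kat6a itself gave 58.7 to 65.3 CPM in CA3 nuclei of all 4 libraries, but counts can lie outside the deleted part, so this checks no label. Transcripts of the cre transgene were at 0 in CA3 and CA1 nuclei of both Control libraries, and at 2.31 and 2.91 CPM in CA3 nuclei and 2.29 and 1.77 CPM in CA1 nuclei of the Kat6a-cKO libraries. Dentate granule nuclei had far less, 0, 0, 0.143 and 0.188 CPM, and inhibitory neurons had 0, 0, 0 and 0.198 CPM. The levels in these 2 classes rest on few counts and do not show in which nuclei Kat6a was deleted. Nuclei were clustered without the members and named from marker genes, and the 17 classes described each held at least 20 nuclei in every library. Values in a sentence follow the order Control replicate 1, Control replicate 2, Kat6a-cKO replicate 1, Kat6a-cKO replicate 2. Levels across 17 classes are descriptions with no test, since classes were built from the same nuclei.

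The 8 genes fell into different classes of cells. Nrg3 was high in every neuron class, and Nrg2 in dentate granule nuclei and Lamp5-type interneurons. Nrg1 was high in CA1, deep-layer and subicular neurons but not in the nuclei named CA3. Erbb4 was high in all interneuron subclasses other than Sst-type and in the oligodendrocyte lineage. Egfr was highest in astrocytes and in Lamp5-type and Vip-type interneurons, Erbb3 in the oligodendrocyte lineage, and Nrg4 and Erbb2 were near 0 in most classes.

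**Figure D1:**
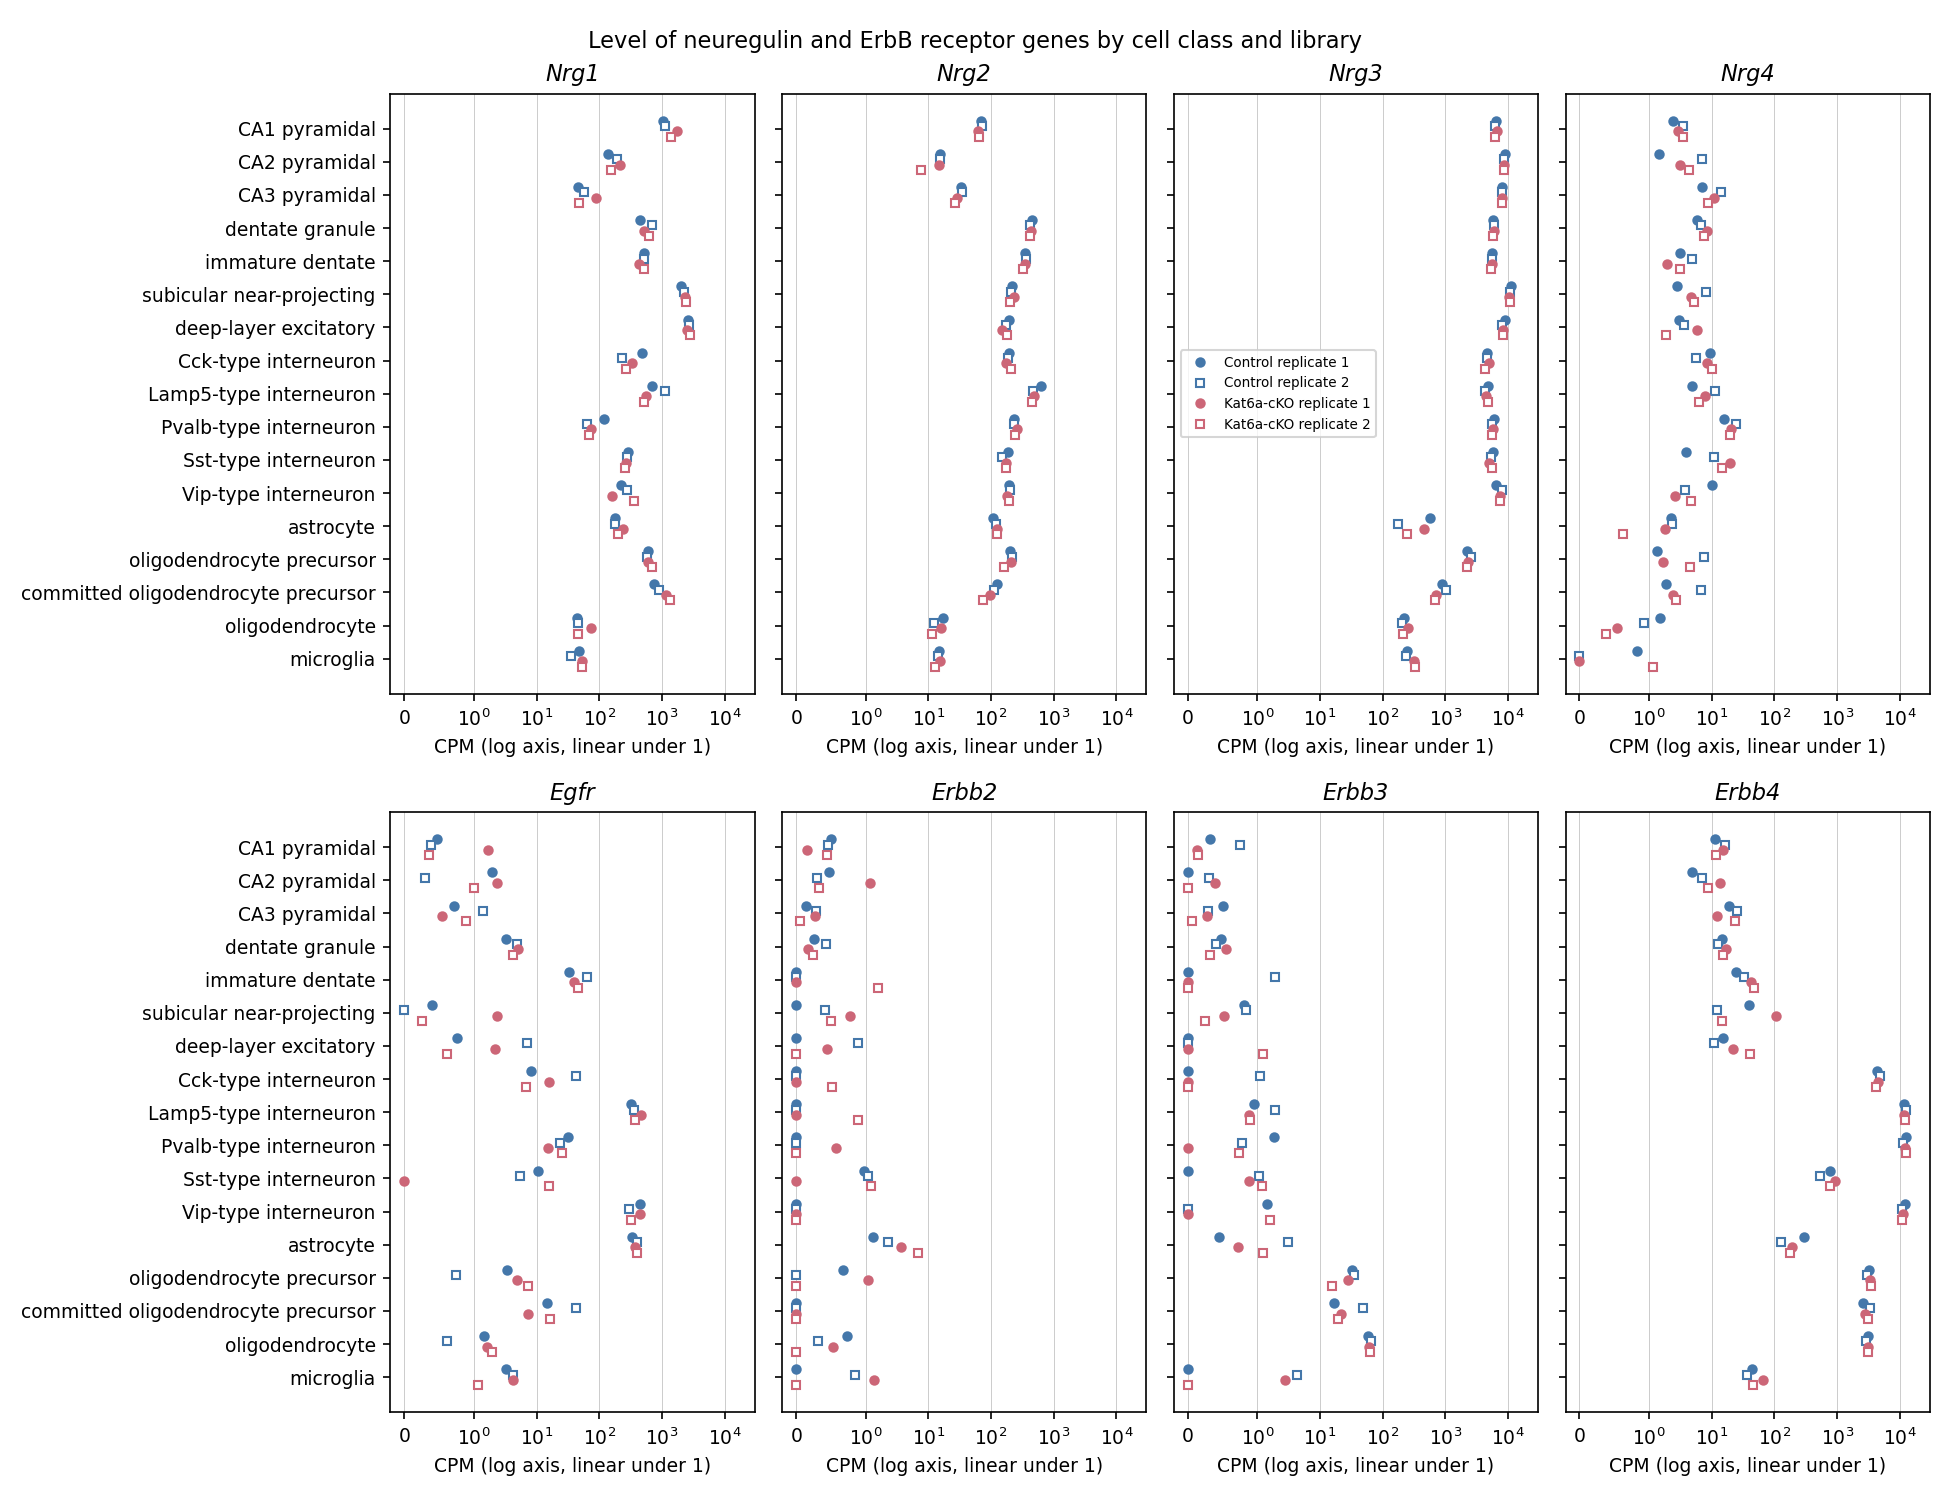
Level of each of the 8 genes (CPM, logarithmic axis that is linear under 1) in each of 17 cell classes, with a point for each library and colours for the 2 Control and the 2 Kat6a-cKO libraries. Erbb4 spans from 4.80 CPM in a library of CA2 pyramidal nuclei to 12401 CPM in Lamp5-type interneurons, while Erbb2 does not exceed 6.87 CPM.

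Nrg1, on chr8:31814551-32884029 on the minus strand in GENCODE M21, encodes the neuregulin best known for signalling to interneurons and myelinating glia. In deep-layer excitatory neurons its level was 2614, 2725, 2529 and 2853 CPM, and in subicular near-projecting neurons 1999, 2214, 2295 and 2418 CPM. The subicular class, led by Vwc2l and Tshz2, also had 5 of 6 deep-layer markers raised, so the 2 classes are not cleanly separated by markers. CA1 pyramidal nuclei followed with 1058, 1118, 1742 and 1382 CPM, whereas CA3 pyramidal nuclei held only 46.4, 56.1, 87.6 and 47.6 CPM. Within a library, Nrg1 was thus 19.9 to 29.1 times higher in CA1 than in CA3, and no CA3 value came near any CA1 value. The CA3 class leaves out cluster 18, an unnamed cluster closest to CA3 by markers, which had more Nrg1 and is described at the end. CA2 pyramidal nuclei lay between the other pyramidal classes at 136 to 211 CPM. The 3 leading classes did not overlap one another, while CA1 overlapped the next class, committed oligodendrocyte precursors.

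Dentate granule nuclei, the targets of the perforant path, had Nrg1 at 447, 693, 519 and 613 CPM, and their immature counterparts at 522, 522, 432 and 513 CPM, ranges that overlapped. This granule average hid a split between clusters. In granule cluster 4, led among other genes by Sv2c, Trpc6 and Acvr1c, Nrg1 reached 1256, 1864, 1542 and 1679 CPM. In granule cluster 0 it was 215, 354, 253 and 303 CPM, and in granule cluster 2 it was 227, 340, 189 and 310 CPM. The lowest library of cluster 4 was above every library of the other granule clusters, which overlapped each other. Cluster 4 made up 22.1 to 23.1% of granule nuclei in all 4 libraries, so its share hardly varied between the groups.

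**Figure D2:**
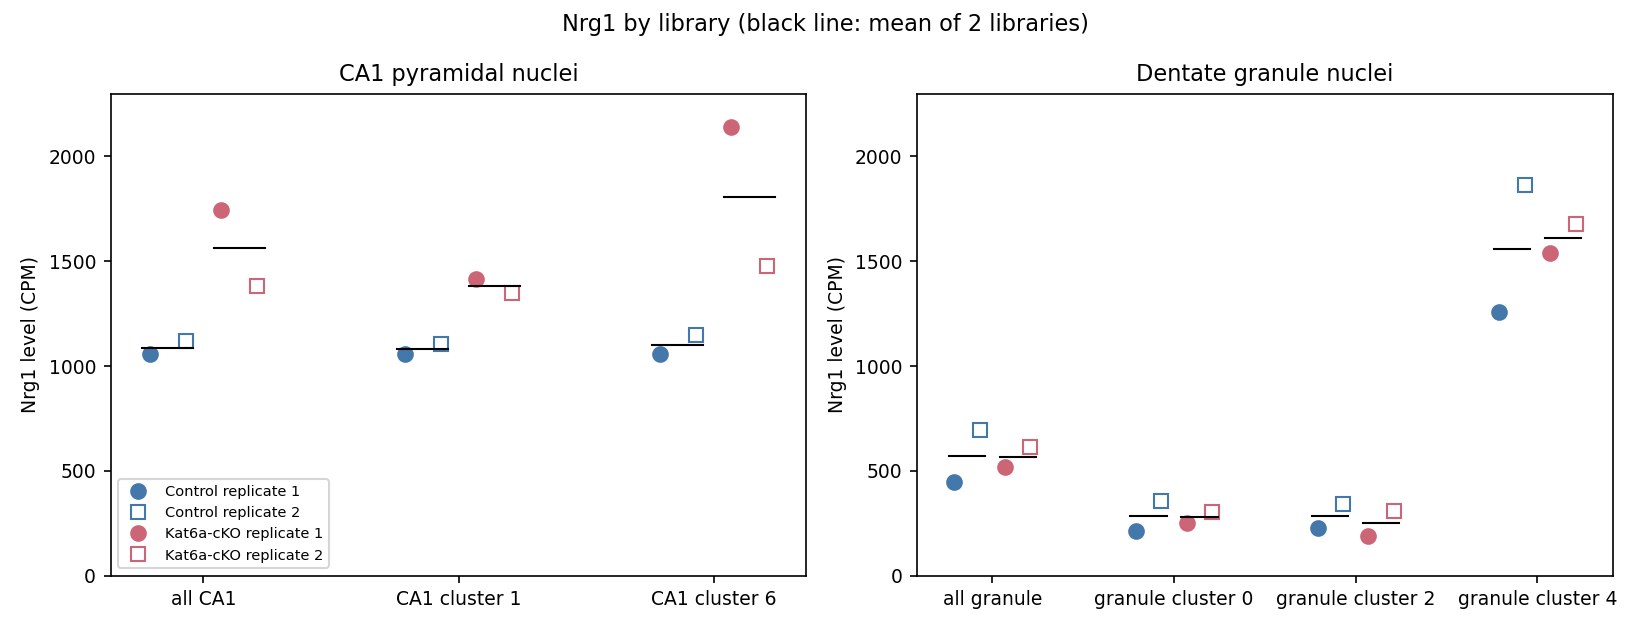
Nrg1 level (CPM) in all CA1 pyramidal nuclei and their clusters 1 and 6 (left) and in all dentate granule nuclei and their clusters 0, 2 and 4 (right), with a point for each library, colours for genotype and a line at the mean of each pair. Granule cluster 4 lies at 1256 to 1864 CPM, above granule clusters 0 and 2, and both Kat6a-cKO libraries lie above both Control libraries in each CA1 panel entry.

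Among interneurons, Nrg1 was highest in the Lamp5-type class, the neurogliaform and ivy-like cells, at 683, 1138, 560 and 525 CPM. Within that class sub-cluster 7 had the higher level, with 1352, 2973, 726 and 1075 CPM against 328, 300, 479 and 206 CPM in sub-cluster 2. Sub-cluster 7 held only 25 to 33 nuclei per library, and its values varied over 4-fold between the libraries. Pvalb-type interneurons, the fast-spiking basket and axo-axonic cells, had the lowest Nrg1 of the interneurons at 120, 64.5, 73.7 and 67.8 CPM. Sst-type interneurons were at 254 to 286 CPM, Vip-type at 159 to 361 CPM and Cck-type at 233 to 480 CPM, ranges that overlapped.

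In the oligodendrocyte lineage Nrg1 was present in the early stages and low in the mature cells. Oligodendrocyte precursors held 598, 580, 589 and 687 CPM and committed precursors, the stage that follows, 739, 895, 1154 and 1322 CPM. The committed precursors, with Tcf7l2, Bcas1 and Enpp6 among their leading genes, also had 8 of 8 oligodendrocyte markers raised. Their summed oligodendrocyte markers were 8781 to 10629 CPM, against 1775 to 2223 CPM for markers of precursors. Mature oligodendrocytes held 43.6, 45.4, 74.8 and 46.3 CPM, which is 15.4 to 28.6 times less than committed precursors in the same library. Astrocytes were at 177 to 235 CPM and microglia at 35.8 to 53.2 CPM. RNA released from broken nuclei reaches every droplet, and in near-empty droplets Nrg1 made up 334 to 488 CPM. When that profile was scaled and subtracted, the microglial mean went from 47.4 to 18.4 CPM.

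Nrg2, on chr18:36017652-36197380 on the minus strand, encodes a neuregulin with binding to both ErbB3 and ErbB4. Its level was highest in Lamp5-type interneurons at 623, 466, 484 and 458 CPM, followed by dentate granule nuclei at 450, 424, 432 and 417 CPM. Immature dentate nuclei came next at 346, 356, 344 and 327 CPM, and these 3 leading classes did not overlap. Pyramidal nuclei were far lower, with 68.9, 70.9, 61.6 and 63.6 CPM in CA1, 33.5, 33.9, 28.5 and 26.8 CPM in CA3, and 7.74 to 15.4 CPM in CA2. Within a library, the granule level was 12.5 to 15.6 times that of CA3 and 5.97 to 7.02 times that of CA1. Oligodendrocyte precursors held 159 to 216 CPM, and mature oligodendrocytes 11.6 to 17.2 CPM.

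Nrg2 differed less than Nrg1 among the granule clusters, with 458 to 500 CPM in cluster 4, 410 to 439 CPM in cluster 0 and 379 to 434 CPM in cluster 2. Within the Lamp5-type class Nrg2 and Nrg1 ran in opposite directions: sub-cluster 2 had the higher Nrg2, at 684, 516, 609 and 564 CPM, and sub-cluster 7 the lower, at 508, 357, 225 and 276 CPM.

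Nrg3, on chr14:38368952-39473088 on the minus strand, encodes a neuregulin that binds ErbB4 and is made mostly in the nervous system. It was the most abundant ligand transcript in every neuron class. Subicular near-projecting neurons had the highest level, 11021, 10841, 10502 and 10790 CPM. Deep-layer neurons at 7900 to 8921 CPM overlapped both CA2 pyramidal nuclei at 8452 to 8919 CPM and CA3 pyramidal nuclei at 7871 to 8122 CPM, while every CA2 library was above every CA3 library. CA1 pyramidal nuclei held 6453, 6241, 6614 and 6291 CPM and dentate granule nuclei 5828, 5990, 5868 and 5692 CPM. The CA3 level was 1.19 to 1.29 times that of CA1 in every library, the reverse of the order seen for Nrg1. Lamp5-type and Cck-type interneurons had the lowest neuronal levels, 4280 to 4922 CPM between them.

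Outside neurons Nrg3 was lower at each later stage of the oligodendrocyte lineage, with 2187, 2520, 2275 and 2182 CPM in precursors, 890, 1036, 720 and 690 CPM in committed precursors and 221, 202, 257 and 209 CPM in oligodendrocytes. The 3 stages did not overlap. Microglia were at 231 to 329 CPM. With Nrg3 at 2602 to 2894 CPM in near-empty droplets, the glial levels of oligodendrocytes and microglia are in a range that free RNA also reaches, and subtraction moved the microglial mean from 279.9 to 83.4 CPM. Astrocytes ranged widely, at 564, 176, 460 and 243 CPM, and their mean of 361 CPM became 203 CPM when clusters were made at a finer resolution. At that resolution 21 nuclei with markers of both astrocytes and dentate granule nuclei formed an unnamed cluster outside the class. Their part in the level was not tested.

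Nrg4, on chr9:55220222-55326844 on the minus strand, encodes a short neuregulin known mainly as a factor released by fat. It did not exceed 24.4 CPM in any library of the 17 classes. Pvalb-type interneurons had the highest level, 15.4, 24.4, 20.3 and 19.7 CPM, followed by Sst-type interneurons at 3.90 to 19.4 CPM and CA3 pyramidal nuclei at 7.01, 13.9, 10.8 and 8.68 CPM. The Sst-type range overlapped both of the others, and every Pvalb-type library was above every CA3 library. CA1 pyramidal nuclei held 2.40 to 3.52 CPM, below every CA3 library. The protein-coding gene Fbxo22 overlaps Nrg4 on the other strand, and whether the counting used strand is not given in the sources used here, so part of these counts may belong to Fbxo22. The antisense genes Nrg3os and Egfros overlap Nrg3 and Egfr in the same way, Mien1 overlaps Erbb2, and 8 annotated genes, none of them protein-coding, overlap Erbb4 on its own strand.

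Levels of different genes were compared per kilobase of annotated gene span, a scaling chosen because nuclei hold unspliced RNA. Whether introns were counted is not given in the sources used here, and whether these counts grow with span was not tested. In CA1 pyramidal nuclei the mean level over the 4 libraries was 5.80 CPM per kb for Nrg3, 1.24 for Nrg1, 0.369 for Nrg2 and 0.0288 for Nrg4. In dentate granule nuclei Nrg3 again led at 5.29 CPM per kb, but Nrg2 at 2.40 came before Nrg1 at 0.531. In CA3 pyramidal nuclei Nrg3 stood at 7.24 CPM per kb and Nrg2 at 0.171, with Nrg4 at 0.0948 and Nrg1 last at 0.0556. On this scale the ligand order below Nrg3 differed between the 3 main excitatory classes. In mean CPM over the 4 libraries the order was Nrg3, Nrg1, Nrg2 and Nrg4 in each of them. In granule nuclei of Control replicate 1 alone, Nrg2 was slightly above Nrg1 in CPM.

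Erbb4, on chr1:68032186-69108059 on the minus strand, encodes the receptor that binds all the neuregulins and has an active kinase. Its level was 12323, 11370, 11985 and 12315 CPM in Pvalb-type interneurons, 11753, 12401, 11500 and 12299 CPM in Lamp5-type and 12123, 10948, 11265 and 10643 CPM in Vip-type. These 3 subclasses overlapped one another and stood apart from the rest. Cck-type interneurons had 4302, 4826, 4420 and 4126 CPM. Sst-type interneurons, which largely target dendrites, had only 767, 532, 916 and 781 CPM. Within a library the ratio to Sst-type was 13.1 to 21.4 for Pvalb-type, 12.6 to 23.3 for Lamp5-type, 12.3 to 20.6 for Vip-type and 4.83 to 9.06 for Cck-type.

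**Figure D3:**
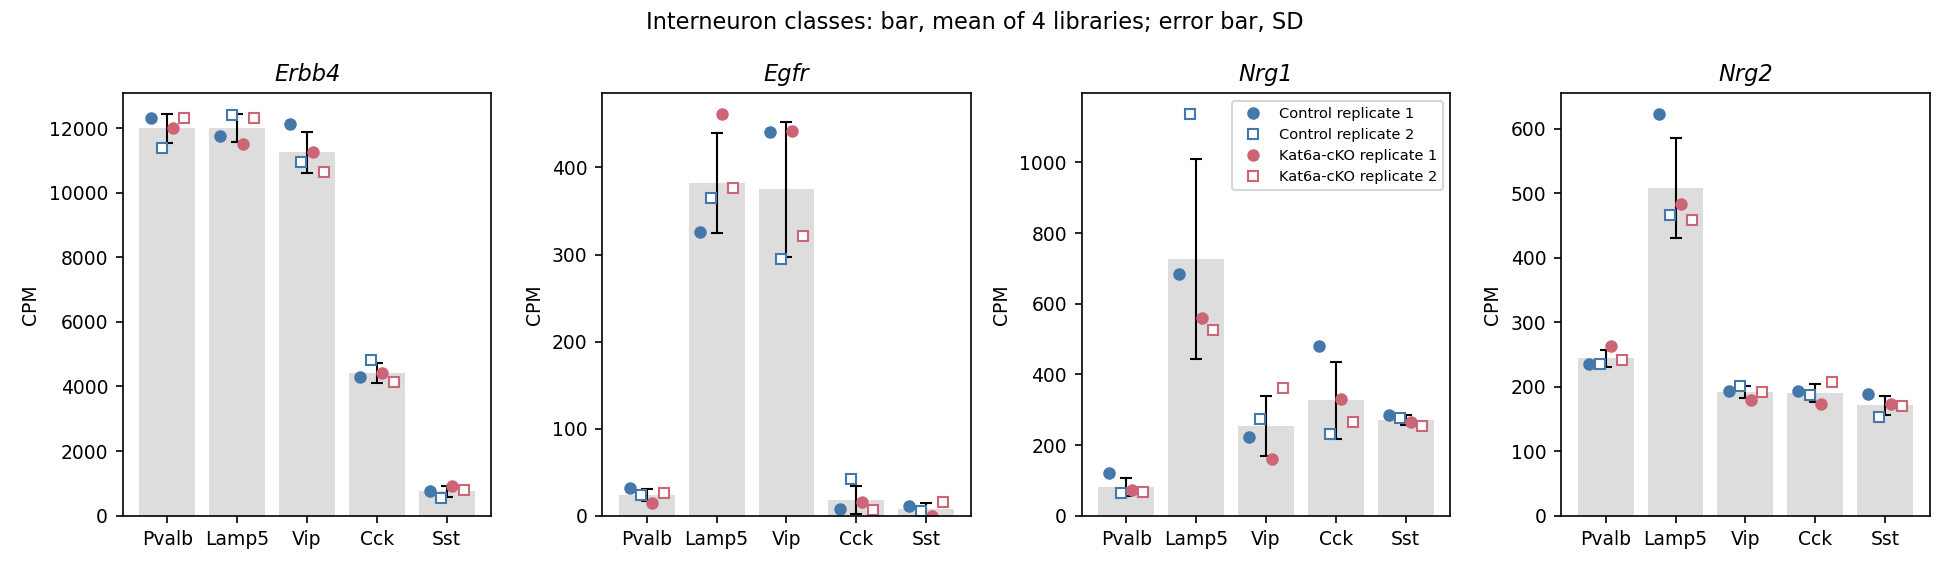
Levels of Erbb4, Egfr, Nrg1 and Nrg2 (CPM) in the Pvalb-type, Lamp5-type, Vip-type, Cck-type and Sst-type interneurons. Bars show the mean of the 4 libraries with its SD, and points show each library, coloured by genotype. Erbb4 in Sst-type interneurons lies at 532 to 916 CPM, under every library of the other subclasses.

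Excitatory neurons had little Erbb4. CA1 pyramidal nuclei held 11.1, 16.2, 15.1 and 11.5 CPM, CA3 19.0, 25.5, 12.1 and 23.3 CPM and dentate granule nuclei 14.5, 12.6, 17.0 and 15 CPM, ranges that overlapped. In near-empty droplets Erbb4 made up 370 to 404 CPM. Inhibitory neurons as a whole exceeded CA1 nuclei 443- to 683-fold, CA3 nuclei 282- to 624-fold and granule nuclei 441- to 571-fold in the same library. One interneuron sub-cluster that met no subclass's markers, sub-cluster 3 with 36 to 49 nuclei per library, had the highest Erbb4 of all, 14696, 17234, 14939 and 16825 CPM.

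Glia of the oligodendrocyte lineage expressed Erbb4 at each stage. Precursors held 3232, 3040, 3315 and 3504 CPM, committed precursors 2575, 3321, 2754 and 3146 CPM and oligodendrocytes 3158, 2888, 3067 and 3111 CPM. These ranges overlapped, and the precursor level was only 1.02 to 1.13 times that of oligodendrocytes in the same library. Among oligodendrocytes, cluster 19, whose leading genes include the myelin genes Mobp, Opalin, Mog and Mag, had 4592, 4686, 4929 and 4345 CPM, and cluster 3 had 2712, 2453, 2483 and 2815 CPM. Astrocytes were at 126 to 297 CPM and microglia at 36.7 to 66.3 CPM, and subtraction of free RNA took the microglial mean from 48.3 to 21.7 CPM.

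Egfr, on chr11:16752203-16918158 on the plus strand, encodes the receptor for EGF, TGF-alpha and related ligands. Astrocytes held 335, 406, 375 and 395 CPM, Lamp5-type interneurons 326, 365, 462 and 376 CPM and Vip-type interneurons 440, 295, 442 and 322 CPM. The 3 classes overlapped, and each was above every other class. Within the Lamp5-type class the Nrg1-rich sub-cluster 7 also had more Egfr, 500, 470, 739 and 638 CPM, than sub-cluster 2 with 234, 316, 328 and 225 CPM. Astrocyte cluster 25, led by Adgrv1 and Slc1a3, had 503, 683, 683 and 536 CPM of Egfr against 311 to 381 CPM in cluster 9.

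Pvalb-type interneurons held 15.1 to 32.1 CPM of Egfr and Cck-type 6.79 to 42.0 CPM, although the former were among the subclasses highest for Erbb4. CA1, CA3 and CA2 pyramidal nuclei held 0.304 to 2.33 CPM. In immature dentate nuclei Egfr read 32.3, 63.9, 40.1 and 46.5 CPM, but the mean of 45.7 CPM became 11.4 CPM with a doubled UMI minimum and 7.96 CPM with finer clusters, so this level depended on which nuclei were counted.

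Erbb3, on chr10:128567523-128589652 on the minus strand, encodes a receptor that binds neuregulins and signals through its partners. Oligodendrocytes had the highest level, 57.9, 64.2, 59.3 and 62.5 CPM. Precursors followed at 32.5, 34.3, 27.8 and 15.5 CPM and committed precursors at 16.8, 47.6, 21.7 and 19.1 CPM, ranges that overlapped each other but not oligodendrocytes. The committed-precursor mean of 26.3 CPM became 47.4 CPM with finer clusters. As for Erbb4, cluster 19 of the oligodendrocytes had the higher level, 95.0, 122, 92.1 and 97.5 CPM against 46.3, 50.2, 49.0 and 54.1 CPM in cluster 3. No other class exceeded 4.26 CPM in any library.

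Erbb2, on chr11:98412470-98437716 on the plus strand, encodes the partner receptor of ErbB3 and ErbB4. Astrocytes had the highest level, 1.33, 2.31, 3.62 and 6.87 CPM, and no other class exceeded 1.55 CPM in any library. Vip-type interneurons and committed precursors had no count of Erbb2 in any library. These levels rest on few counts, and committed precursors held only 366824 to 535856 UMIs in a library, so the order of classes carries little weight. The oligodendrocyte lineage, which held both Erbb3 and Erbb4, had 0 to 1.09 CPM of Erbb2. Near-empty droplets held 2.51 to 7.19 CPM of Erbb2, and with free RNA subtracted the astrocyte mean was 3.44 CPM against 3.53 CPM.

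**Figure D4:**
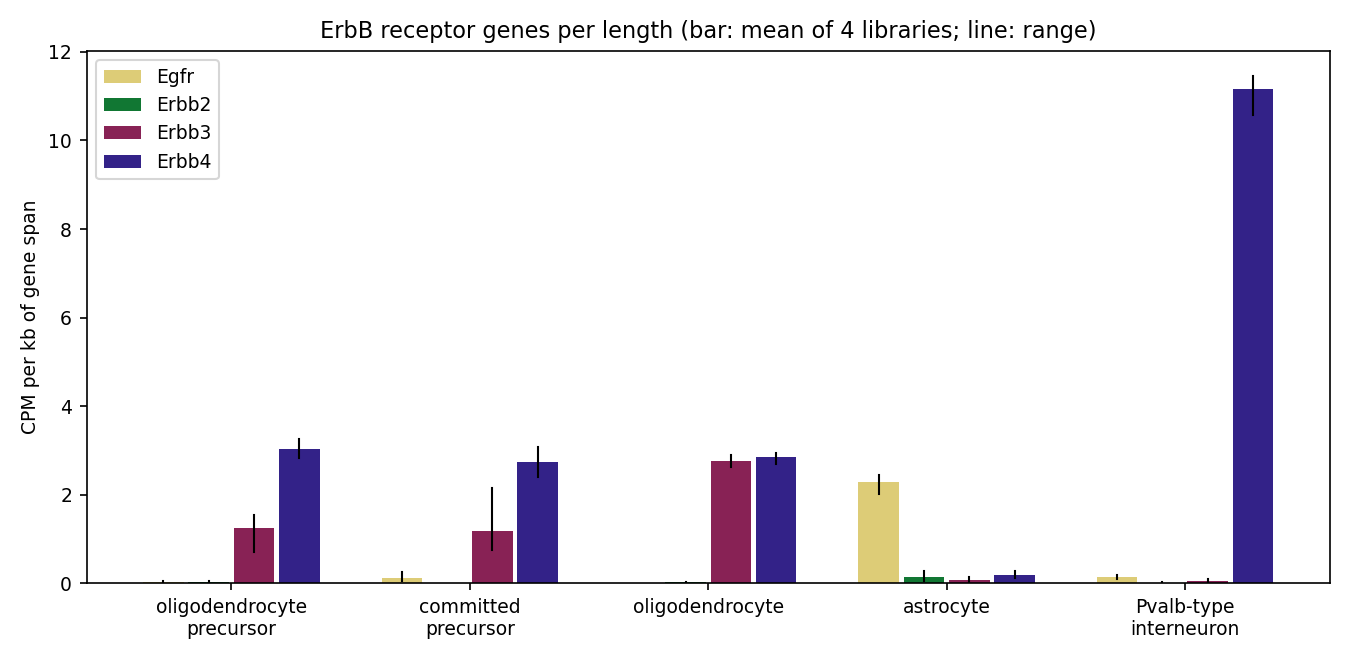
Levels of the 4 receptor genes per kilobase of gene span (CPM per kb) in 5 cell classes, with bars for the mean of the 4 libraries and lines for their range. In oligodendrocytes Erbb3 and Erbb4 have means of 2.75 and 2.84 CPM per kb, and the mean of Erbb4 is 11.2 CPM per kb in Pvalb-type interneurons.

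Per kilobase, oligodendrocytes held about as much Erbb3 as Erbb4, with means of 2.75 and 2.84 CPM per kb, although Erbb4 was far ahead in CPM. In precursors Erbb4 at 3.04 CPM per kb exceeded Erbb3 at 1.24, and in committed precursors the means were 2.74 and 1.19. Pvalb-type interneurons reached 11.2 CPM per kb of Erbb4 and 0.145 of Egfr. Astrocytes held 2.28 CPM per kb of Egfr, 0.184 of Erbb4 and 0.14 of Erbb2. A gene span is a rough length for nuclear 3′-tagged counts, so small differences on this scale carry little weight.

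The genes whose level followed each member most closely over the 17 classes were found among 10107 genes, by Pearson r of the mean log2(CPM + 5). The classes share libraries and free RNA, so these r values are descriptions. Nrg3 had near-identical profiles in Ksr2 (r = 0.98), Tmem63c (0.98) and Sptbn4 (0.98), and Erbb3 in Ninj2 (0.99), Phldb1 (0.98) and Gjc3 (0.98), the last of which encodes a connexin of oligodendrocytes. Erbb4 was most like Sox2ot (0.93), Cux2 (0.90) and Ggcx (0.88), and Nrg2 most like Rgs17 (0.90), Adcyap1r1 (0.89), which encodes the PACAP receptor, and Slc2a13 (0.87). The closest genes to Egfr were AC121552.1 (0.91), A830019P07Rik (0.86) and Csdc2 (0.85). Nrg1 had no close match, with Khdrbs2 (0.83), Dcbld1 (0.78) and Ece1 (0.75) leading. Between members r was 0.57 for Nrg1 and Nrg2 and -0.18 for Nrg1 and Erbb4. Nrg4 and Erbb2 reached a mean of 20 CPM in no class, so their profiles rest on few counts. Their closest genes were A730060N03Rik (0.87), Mblac2 (0.87) and Slc4a3 (0.86) for Nrg4 and Thbs4 (0.95), Gm13110 (0.95) and Gm11627 (0.95) for Erbb2.

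The genotype comparison asked whether any member differed between Kat6a-cKO and Control within a class. No member passed in any of 8 classes: of 64 possible pairs of gene and class 46 had enough counts to be fitted by edgeR's quasi-likelihood test, and 0 reached an adjusted p under 0.05. At an unadjusted p under 0.05 there were 9 of the 46, with 0 to 2 in a class, where the share of all genes tested at that threshold ran from 6.54% to 9.94% over the classes. DESeq2 called 1 member. Of all genes tested, edgeR called 0.0612% for CA3, 0.0118% for CA1 and 0.381% for dentate granule nuclei. The share was 0.0412% for inhibitory neurons, 0.348% for astrocytes, 0.00856% for oligodendrocytes, 0% for their precursors and 0.01% for microglia. Calls were thus rare among all genes too. An exact permutation of 2 against 2 libraries cannot go below p = 0.333, so ranges that do not overlap are described only.

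**Figure D5:**
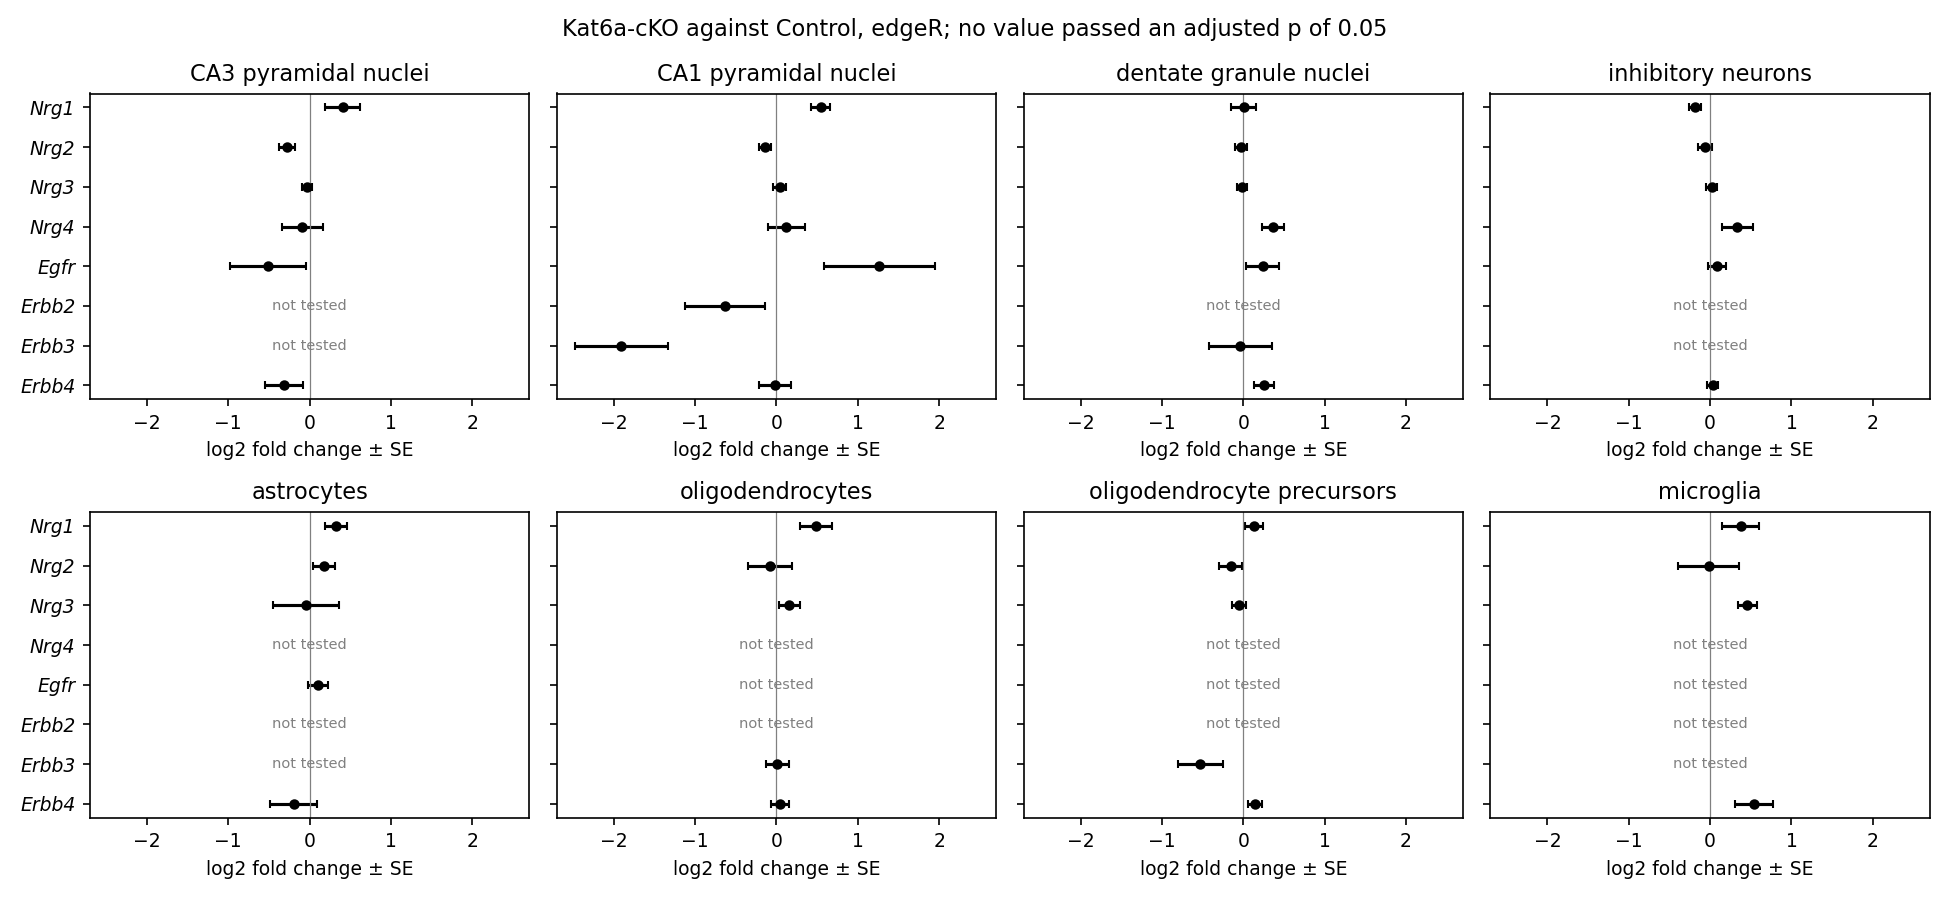
Log2 fold change of each member (Kat6a-cKO over Control, point) with its standard error (bar) in each class, from edgeR's quasi-likelihood test on 2 against 2 libraries. Members with too few counts in a class are marked as not tested. None passes an adjusted p of 0.05, and Nrg1 in CA1 pyramidal nuclei lies at 0.54.

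Among members in excitatory classes, Nrg1 in CA1 pyramidal nuclei had the smallest adjusted p. The Control libraries held 1058 and 1118 CPM and the Kat6a-cKO libraries 1742 and 1382 CPM, so both Kat6a-cKO libraries were higher. The log2 fold change was 0.54 ± 0.11 (SE), with an adjusted p of 0.266 by edgeR. Over the alternatives the adjusted p ran from 2.93e-10 to 0.613. DESeq2 gave a log2 fold change of 0.55 and an adjusted p of 0.00255, with 0.601% of all genes called. Without Kat6a-cKO replicate 2, edgeR gave 0.71 with an adjusted p of 7.93e-04, and without Kat6a-cKO replicate 1 it gave 0.35 with an adjusted p of 0.151.

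The difference was seen in both CA1 clusters. Cluster 6, led by Dcn, Meis2 and Kit, held 1057, 1147, 2139 and 1475 CPM of Nrg1, and cluster 1 held 1058, 1107, 1413 and 1349 CPM. Both Kat6a-cKO libraries were above both Control libraries in each cluster, and the highest value was that of Kat6a-cKO replicate 1 in cluster 6. Cluster 6 made up 41.5% of CA1 nuclei in that library against 24.0 to 25.5% in the other 3. Fits on cluster 1 alone and cluster 6 alone each called 0 members, beside 61 and 11 of all genes. The part of cluster 6 in the difference was not tested beyond these fits and the values by cluster. At the finer Leiden resolution of 2 the class held 5 clusters, looked at after Nrg1 had been seen among the leading genes of 1 of them, cluster 24. Cluster 24 made up 4.89, 5.97, 12.6 and 6.86% of CA1 nuclei and held 2152, 2040, 3459 and 2681 CPM of Nrg1. It was thus the CA1 cluster with most Nrg1 in each library, and its share was highest in Kat6a-cKO replicate 1. In each of the 5 finer clusters both Kat6a-cKO libraries were above both Control libraries, although 1 of them, cluster 32, had only 4 nuclei in Kat6a-cKO replicate 1.

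In CA3 pyramidal nuclei, the region the study was about, Nrg1 at 46.4 and 56.1 CPM in Control against 87.6 and 47.6 CPM in Kat6a-cKO overlapped, with a log2 fold change of 0.41 ± 0.21 (edgeR, adjusted p = 0.745). Kat6a-cKO replicate 1 alone was high, and without it the log2 fold change was -0.11 (edgeR adjusted p = 0.993), whereas without Kat6a-cKO replicate 2 it was 0.80 (edgeR adjusted p = 1.65e-10) and without Control replicate 2 it was 0.52 (edgeR adjusted p = 0.00179). Nrg2 was lower in both Kat6a-cKO libraries, 28.5 and 26.8 CPM against 33.5 and 33.9 CPM, with a log2 fold change of -0.28 ± 0.10 (edgeR, adjusted p = 0.524). In the same nuclei the summed markers of oligodendrocytes (76.1, 83.3, 62.4 and 55.6 CPM), their precursors (25.9, 29.8, 24.8 and 21.2 CPM) and microglia (80.6, 88.7, 70.9 and 77.4 CPM) were also lower in both Kat6a-cKO libraries. Those of astrocytes (499, 509, 490 and 516 CPM) and inhibitory neurons (6.66, 10.1, 6.54 and 7.55 CPM) overlapped between the groups. The part of these markers in the CA3 value of Nrg2 was not tested. Nrg3 differed by -0.03 ± 0.06 on the log2 scale and Erbb4 by -0.31 ± 0.23, or by -0.85 without Kat6a-cKO replicate 2 (edgeR adjusted p = 1.63e-04). Nrg2 in CA1 was 61.6 and 63.6 CPM in Kat6a-cKO against 68.9 and 70.9 CPM in Control, a log2 fold change of -0.14 ± 0.07 (edgeR, adjusted p = 0.685). The summed markers of oligodendrocytes (106, 104, 94.8 and 82.4 CPM) and microglia (107, 134, 96.2 and 101 CPM) were lower there too in both Kat6a-cKO libraries. Those of astrocytes (107, 99.1, 119 and 111 CPM) were higher in both. The part of these markers in the CA1 value was not tested.

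Dentate granule nuclei gave small differences for the abundant ligands, with log2 fold changes of 0.01 ± 0.15 for Nrg1, -0.03 ± 0.07 for Nrg2 and -0.02 ± 0.06 for Nrg3. Nrg4 went from 5.72 and 6.69 CPM (Control) to 8.32 and 7.51 CPM (Kat6a-cKO) and was higher in both Kat6a-cKO libraries (log2 fold change 0.37 ± 0.14, edgeR adjusted p = 0.391). Granule cluster 0 made up 32.5 and 19.3% of granule nuclei for Control against 66.3 and 54.8% for Kat6a-cKO, and cluster 2 made up 44.4 and 57.8% against 11.6 and 22.4%. Fits on granule clusters 0, 2 and 4 alone each called 0 of 6 members, beside 1, 2 and 1 of all genes. The part of these shares in the granule values was not tested beyond those fits.

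In inhibitory neurons, in which cre was at or near 0, Erbb4 stood at 7601 and 7197 CPM for Control against 7516 and 7479 CPM for Kat6a-cKO, a log2 fold change of 0.03 ± 0.07 (edgeR, adjusted p = 0.971). Egfr differed by 0.09 ± 0.11. Nrg1 was lower in both Kat6a-cKO libraries, 308 and 285 CPM against 326 and 356 CPM (log2 fold change -0.19 ± 0.08, edgeR adjusted p = 0.693). Slc17a7, Slc17a6 and Neurod6, 3 general markers of excitatory neurons, summed to 30.9, 32.2, 22.4 and 25.1 CPM there, lower in both Kat6a-cKO libraries. Neurod6 is the locus of NEX-cre, so this sum does not measure excitatory RNA apart from the genotype. The summed markers of oligodendrocytes (93.9, 90.1, 78.9 and 65.3 CPM) and microglia (126, 145, 121 and 106 CPM) were also lower in both Kat6a-cKO libraries. Those of oligodendrocyte precursors (323, 370, 374 and 344 CPM) and astrocytes (202, 164, 212 and 197 CPM) were not. The part of these markers in the Nrg1 value was not tested.

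Glia showed no passing member either. Erbb3 in oligodendrocytes differed by 0.01 ± 0.14 on the log2 scale and Erbb4 by 0.04 ± 0.11. Nrg1 in oligodendrocytes was 43.6 and 45.4 CPM for Control against 74.8 and 46.3 CPM for Kat6a-cKO, a log2 fold change of 0.49 ± 0.20 (edgeR adjusted p = 0.591) in which Kat6a-cKO replicate 1 alone stood above the rest, and 0.054 without that library. Nrg1 in near-empty droplets was also highest in Kat6a-cKO replicate 1 and higher in both Kat6a-cKO libraries, at 334, 383, 488 and 406 CPM, and with free RNA subtracted the log2 fold change in oligodendrocytes was 0.43 (edgeR adjusted p = 0.750). With a replicate block its adjusted p was 0.0387, in a fit that called 2.81% of all genes. In oligodendrocyte precursors Erbb3 was 27.8 and 15.5 CPM in Kat6a-cKO against 32.5 and 34.3 CPM (log2 fold change -0.53 ± 0.28, edgeR adjusted p = 0.759), and the value was -1.09 without Kat6a-cKO replicate 1 but -0.23 when Kat6a-cKO replicate 2 was left out instead. The 8 oligodendrocyte markers summed to 277, 288, 236 and 197 CPM in these nuclei, also lower in both Kat6a-cKO libraries, and their part in the Erbb3 value was not tested. In astrocytes Nrg1 was 235 and 195 CPM in Kat6a-cKO against 177 and 179 CPM in Control (log2 fold change 0.32 ± 0.14, edgeR adjusted p = 0.689). These levels were under those of near-empty droplets, which ranked the libraries in the same order. Over the alternatives, subtraction of free RNA among them, the log2 fold change ran from 0.17 to 0.47. Egfr in astrocytes differed by 0.10 ± 0.12. Nrg3 in astrocytes stood at 564, 176, 460 and 243 CPM, in a class of 463, 301, 667 and 411 nuclei. At Leiden resolution 2 the class held 454, 301, 657 and 408 nuclei, and its mean Nrg3 level was 203 CPM against 361 CPM. The number of nuclei was unchanged in Control replicate 2, the library lowest in Nrg3. The part of the nuclei lost in the genotype value was not tested beyond a fit at that resolution, which called 0 members. With all libraries the log2 fold change of Nrg3 was -0.05 ± 0.41. Leaving out Control replicate 1 moved it to 1.09, and leaving out Control replicate 2 moved it to -0.64, so its direction turned on 1 library. Erbb4 in astrocytes likewise went from -0.20 to -0.67 without Control replicate 2 (edgeR adjusted p = 0.0141) and to 0.61 without Control replicate 1 (edgeR adjusted p = 0.0838).

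In microglia Nrg3 was 314 and 329 CPM in Kat6a-cKO against 246 and 231 CPM in Control, a log2 fold change of 0.46 ± 0.12 (edgeR adjusted p = 0.223). Erbb4 there was 66.3 and 46.0 CPM against 44.3 and 36.7 CPM (0.54 ± 0.23, edgeR adjusted p = 0.497). These levels lie within reach of free RNA, as described above, while 3 general neuron markers summed to 942 and 1273 CPM in the Control microglia, against 816 and 894 CPM in the Kat6a-cKO microglia. The part of free RNA in the difference was not tested beyond the subtraction, after which Nrg3 gave 0.21 (edgeR adjusted p = 0.964) and Erbb4 0.57 (edgeR adjusted p = 0.733). Without Control replicate 1, Nrg3 gave 0.53 (edgeR adjusted p = 0.0442).

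At levels of a few counts, Erbb3 in CA1 pyramidal nuclei was 0.316, 0.757, 0.131 and 0.147 CPM and gave a log2 fold change of -1.91 ± 0.57 (edgeR adjusted p = 0.424). The 8 oligodendrocyte markers, none of them at 0, summed to 106, 104, 94.8 and 82.4 CPM in the same nuclei, also lower in both Kat6a-cKO libraries, and their part in the Erbb3 value was not tested. Egfr there was 0.475, 0.378, 1.70 and 0.354 CPM, with a single high library, without which the log2 fold change of 1.26 (edgeR adjusted p = 0.699) became -0.26. Without Kat6a-cKO replicate 2 it was 2.02 (edgeR adjusted p = 0.0135). When genes with low counts were kept, edgeR called 3 members in CA1 (Nrg1, Egfr and Erbb3), 1 in CA3 (Nrg1) and 2 in the difference between CA3 and dentate granule nuclei (Nrg1 and Erbb4), beside 1.85%, 0.767% and 0.491% of all genes.

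The other fitted members had edgeR adjusted p between 0.549 and 0.996. In CA3 the log2 fold change was -0.09 ± 0.25 for Nrg4 and -0.51 ± 0.47 for Egfr. CA1 gave 0.04 ± 0.08 for Nrg3, 0.12 ± 0.22 for Nrg4, -0.63 ± 0.49 for Erbb2 and -0.02 ± 0.19 for Erbb4. Granule nuclei gave 0.24 ± 0.20 for Egfr, -0.04 ± 0.39 for Erbb3 and 0.25 ± 0.12 for Erbb4, the last with the smallest adjusted p of these. Inhibitory neurons gave -0.06 ± 0.08 for Nrg2, 0.02 ± 0.07 for Nrg3 and 0.33 ± 0.19 for Nrg4. Nrg2 differed by 0.18 ± 0.14 in astrocytes, -0.08 ± 0.27 in oligodendrocytes, -0.16 ± 0.14 in their precursors and -0.01 ± 0.37 in microglia. Nrg3 differed by 0.16 ± 0.13 in oligodendrocytes and -0.05 ± 0.09 in precursors. Nrg1 gave 0.14 ± 0.11 and Erbb4 0.14 ± 0.09 in precursors, and Nrg1 gave 0.37 ± 0.23 in microglia.

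Members whose libraries did not overlap between the groups were also counted, among genes with at least 40 counts. In CA1, 1 of 8 members was higher and 3 of 8 lower in both Kat6a-cKO libraries, beside 14.9% and 22% of all genes. In CA3 the members were 0 and 2 of 6, beside 16.2% and 20.9%, and in dentate granule nuclei 2 and 1 of 8, beside 17% and 22%. Inhibitory neurons had 0 and 1 of 6, beside 14.2% and 21.1%, and astrocytes 2 and 0 of 5, beside 13.9% and 22.2%. Oligodendrocytes had 1 and 0 of 5, beside 15.5% and 19.5%, oligodendrocyte precursors 1 and 1 of 5, beside 15.3% and 21%, and microglia 3 and 0 of 4, beside 16.5% and 22.2%. With 4 to 8 members in a class, a single gene moves these counts, and microglia, with 3 of 4, stood furthest from the share of all genes. One of these 3, Nrg1, had a log2 fold change of -0.47 in microglia with free RNA subtracted, where 2 of the 3 members tested had a positive value.

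Whether the genotype effect differed between classes was tested with an interaction term. For the difference between CA3 and CA1 no member passed, beside 0.0644% of all genes, and Nrg1 gave -0.15 in CA3 minus CA1 on the log2 scale (edgeR adjusted p = 0.949). Erbb4 gave -0.28 there, and -1.01 without Kat6a-cKO replicate 2 (edgeR adjusted p = 0.00369). For the difference between CA3 and dentate granule nuclei no member passed either, beside 0.243% of all genes. Nrg2 had the smallest p there, with a log2 difference of -0.23 ± 0.08 in CA3 minus dentate granule nuclei (edgeR adjusted p = 0.506), followed by Erbb4 with -0.57 ± 0.22 (edgeR adjusted p = 0.599). Single libraries moved both Erbb4 and Nrg1 in this comparison. Erbb4 was -1.19 without Kat6a-cKO replicate 2 (edgeR adjusted p = 1.58e-07), -0.85 without Control replicate 1 (edgeR adjusted p = 4.98e-04) and -0.080 without Kat6a-cKO replicate 1. Nrg1, at 0.37 with all libraries (edgeR adjusted p = 0.796), was 0.90 without Kat6a-cKO replicate 2 (edgeR adjusted p = 5.05e-15), 0.56 without Control replicate 1 (edgeR adjusted p = 5.42e-05) and -0.23 without Kat6a-cKO replicate 1.

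A list of 62 other genes of the pathway covered other EGF-family ligands, shedding proteases such as Bace1 and Adam17, inhibitors and degradation factors such as Lrig1 and Errfi1, and signal carriers downstream of the receptors. By edgeR 0 of them passed in any class, and unadjusted p was under 0.05 for 5 of 56 tested in CA3, 2 of 56 in CA1, 5 of 58 in the dentate granule class and 3 of 57 inhibitory. The glial counts were 2 of 53 for astrocytes, 1 of 55 for oligodendrocytes, 4 of 51 for their precursors and 2 of 47 for microglia. Over all genes tested the share under 0.05 ran from 6.54% to 9.94%. The median log2 fold change of the list ran from -0.0059 in dentate granule nuclei to 0.080 in microglia, and that of all genes tested from -0.0035 to 0.0037. The 3 genes with the smallest p in each class are given here with their log2 fold changes, and none of them passed. In CA3 they were the ubiquitin ligase gene Wwp1 (0.31, edgeR adjusted p = 0.436), the GTPase gene Hras (-0.37) and the transcription factor gene Stat5b (0.95). In CA1 they were the gamma-secretase subunit gene Aph1b (0.22), the ligand gene Btc (0.55) and the adaptor gene Gab2 (0.34). Dentate granule nuclei gave Hras (-0.49, edgeR adjusted p = 0.161), the kinase gene Mapk3 (-0.29) and the receptor inhibitor gene Lrig3 (0.92), and inhibitory neurons gave Pik3r1 (0.26), Cbl (-0.26) and Sos2 (0.20). Among glia, astrocytes gave Hras (-0.58), Lrig1 (0.33) and Rnf41 (0.42), and microglia gave Pik3r1 (0.33), Hras (-0.70) and Wwp1 (0.39). Oligodendrocytes gave the kinase gene Fyn (0.40, edgeR adjusted p = 0.283), Aph1b (0.70) and Map2k1 (-0.23), and their precursors gave Erbin (0.42), Map2k1 (-0.36) and Stat5b (0.29).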

How the data were processed

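The deposited files hold raw UMI counts per gene and barcode for the 4 libraries. The submitters' processing notes name build mm10 and Seurat 4.0.1, and the aligner, the counter and the use of strand and introns are not given in the sources used here. The members, the pathway list and the class markers were chosen with earlier results of these data known, and the rules that decide a cluster's name were settled with the clusters in view. Of 55422 gene identifiers, 55154 had a symbol and 54587 matched GENCODE M21 with their version. Nrg1 matched without its version, so its span may differ from the one used for counting, and the other 7 members matched exactly.

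Barcodes with at least 1000 UMIs were kept, doublets marked by Scrublet were removed (350 to 550 per library) and nuclei were clustered with scanpy 1.11.5 (2000 variable genes, 30 components, 15 neighbours, Leiden resolution 1) without the members, the pathway list, mitochondrial genes, Kat6a, Xist and cre. A class needed at least 3 markers, and at least 50% of those listed for it, raised 2-fold or more over the other nuclei. Where several classes of 1 lineage met this, the one with most markers among the cluster's 10 leading genes gave the name, interneuron subclasses aside. Markers of a second lineage, ties and leading genes of another class could leave a cluster unnamed. Neuron classes used nuclei with at least 5000 UMIs and glia those with at least 1000. Counts were summed per class and library, a level was shown where each library had at least 20 nuclei, and genotype was tested in 8 broad classes, each with at least 30, and not in the others.

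Tests were made across all genes with edgeR 4.0.16 (filterByExpr, TMM, two-sided quasi-likelihood test, Benjamini-Hochberg, threshold 0.05) in R 4.3.3. The standard error is the size of the log2 fold change divided by the square root of its F. On simulated counts, 200 genes per class were changed by 1 on the log2 scale, up or down. Of those that could be tested 107 to 154 were called, with 1 to 11 unchanged genes. Each simulated gene was given the spread typical of its level, and none had extra spread of its own. Smaller changes were not simulated. Free RNA was read from barcodes with 10 to 100 UMIs. The rule for named genes took all 8 members, whose levels are plotted for every class and whose genotype values are given wherever fitted, the 3 genes of most similar profile to each and, where no pathway gene passed, the 3 of smallest p per class. Alternatives were DESeq2 1.42.0, no filter, a replicate block, each library left out, a doubled UMI minimum, Leiden resolution 2, subtracted free RNA and, chosen after seeing the data, each CA1 and granule cluster alone. The labels do not say that replicate numbers pair the libraries.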

Additional observations from a re-analysis of the deposited data

Results flagged for a closer look

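In 7 pairs of classes both Kat6a-cKO libraries of a member were above both Control libraries in the first and below in the second. Among all genes with at least 40 counts, 13.9% to 17% were above in this way within a class and 19.5% to 22.2% below. The share of all genes that meets both conditions in a pair was not counted, so the 7 are not shown to exceed what other genes give. None of the 7 differences was tested, and each is the log2 fold change in the first class minus that in the second. The log2 fold change of Nrg1 was 0.73 higher in CA1 pyramidal nuclei than in inhibitory neurons, 0.67 higher in oligodendrocytes, 0.56 higher in microglia and 0.51 higher in astrocytes. Both Kat6a-cKO libraries had less Nrg1 than both Control libraries in inhibitory neurons and more in the other 4 classes. The log2 fold change of Nrg1 in microglia was 0.37 and became -0.47 with free RNA subtracted, and that in oligodendrocytes was 0.49 and became 0.054 without Kat6a-cKO replicate 1. For Nrg2 the value in astrocytes was 0.45 above that in CA3 pyramidal nuclei and 0.32 above that in CA1 pyramidal nuclei, with both Kat6a-cKO libraries higher in astrocytes and lower in the pyramidal nuclei. For Nrg3 the value in microglia was 0.48 above that in CA3 pyramidal nuclei, with both Kat6a-cKO libraries higher in microglia and lower in CA3. The microglial value of Nrg3 was 0.46 and became 0.21 with free RNA subtracted. In CA3 the value of Nrg3 ran from -0.061 to 0.0084 with 1 library left out. Many such pairs share the same class, so the 7 are not separate observations, and no effect within any of these classes passed the threshold for these genes.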

How the results depend on the processing

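The 4 libraries, 2 in each group, limit the genotype results, and the counts of called genes moved widely with the setting. Over the alternatives edgeR and DESeq2 called from 2 to 268 of all genes in CA3 pyramidal nuclei against 9 in the reported fit, 2 to 531 against 2 in CA1, 1 to 600 against 66 in dentate granule nuclei, 0 to 135 against 6 in inhibitory neurons, 2 to 288 against 39 in astrocytes, 1 to 328 against 1 in oligodendrocytes, 0 to 151 against 0 in their precursors and 0 to 89 against 1 in microglia. For the differences between classes the counts were 2 to 177 against 11 between CA3 and CA1, and 23 to 188 against 42 between CA3 and dentate granule nuclei. Glial levels under the free-RNA level are limited by that RNA, and members with few counts by depth. Of 210 levels of at least 20 CPM under the alternatives, 202 stayed within 1.5 times of the reported level. Of the other 8, all but Erbb4 in deep-layer neurons, at 14.7 CPM with finer clusters against 22.2 CPM, are given with the levels.

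No member passed in the reported fits. DESeq2 called 1 member in CA1, and without a filter on low counts edgeR called 1 member in CA3, 3 in CA1 and 2 in the difference between CA3 and dentate granule nuclei. With 1 library left out, members were also called in CA3, CA1, astrocytes, microglia and both differences between classes. The calls came without Control replicate 2 and Kat6a-cKO replicate 2 in CA3, Kat6a-cKO replicate 2 in CA1 and between CA3 and CA1, either Control library in astrocytes, Control replicate 1 in microglia, and Control replicate 1 or Kat6a-cKO replicate 2 between CA3 and dentate granule nuclei. Each of these fits also called more of all genes than the reported fit did. The group left with 1 library was then taken to vary like the other. The replicate numbers do not pair the libraries by the labels, and same-numbered libraries had deviations from their group means that correlated at r of 0.012 to 0.218. With a replicate block 1 member was called in oligodendrocytes, Nrg1, and the log2 fold change of Nrg3 in astrocytes became 0.057. The block changed no other call among the members. The cause of these changes was not tested.

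Of 487 alternative values of the members' log2 fold changes, 422 kept their direction and side of the threshold, 14 newly passed with the same direction and 51 changed sign, of which 1, Nrg3 in astrocytes without Control replicate 1, also passed. Without a library left out, the sign changed for Erbb4 in CA1 (0.19 at Leiden resolution 2 and 0.082 in cluster 1 alone), for Nrg1 in dentate granule nuclei (-0.0068 without a filter, -0.020 in cluster 0 and -0.16 in cluster 2), for Egfr there (-0.33 in cluster 2 and -0.86 in cluster 4), for Nrg2 there (0.030 in cluster 4) and for Erbb3 there (0.23 with the UMI minimum doubled). It also changed in microglia for Nrg2 (0.011 with the UMI minimum doubled) and Nrg1 (-0.47 with free RNA subtracted). With a replicate block it changed for Nrg3 in astrocytes, as given above. The difference of Nrg3 between CA3 and dentate granule nuclei changed sign too (-0.017 at Leiden resolution 2).

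Leaving out each library in turn changed the sign of further members, whose log2 fold change then covered these ranges. CA1 pyramidal nuclei gave -0.26 to 2.02 for Egfr, -0.24 to 0.24 for Erbb4, -0.017 to 0.097 for Nrg3 and -0.097 to 0.39 for Nrg4. CA3 pyramidal nuclei gave -0.90 to 0.00081 for Egfr, -0.85 to 0.062 for Erbb4, -0.11 to 0.80 for Nrg1, -0.061 to 0.0084 for Nrg3 and -0.47 to 0.45 for Nrg4. Astrocytes gave -0.0099 to 0.23 for Egfr, -0.67 to 0.61 for Erbb4 and -0.64 to 1.09 for Nrg3. Dentate granule nuclei gave -0.013 to 0.52 for Egfr, -0.52 to 0.31 for Erbb3, -0.26 to 0.32 for Nrg1, -0.096 to 0.034 for Nrg2 and -0.061 to 0.016 for Nrg3. Inhibitory neurons gave -0.089 to 0.24 for Egfr, -0.019 to 0.090 for Erbb4, -0.15 to 0.033 for Nrg2 and -0.036 to 0.075 for Nrg3. Microglia gave -0.18 to 0.096 for Nrg2. Oligodendrocyte precursors gave -0.38 to 0.014 for Nrg2 and -0.14 to 0.043 for Nrg3. Oligodendrocytes gave -0.025 to 0.047 for Erbb3, -0.057 to 0.15 for Erbb4, -0.37 to 0.23 for Nrg2 and -0.022 to 0.32 for Nrg3. For the difference between CA3 and CA1 pyramidal nuclei the range was -2.90 to 0.024 for Egfr, -1.66 to 1.88 for Erbb2, -0.85 to 1.51 for Erbb3, -1.01 to 0.30 for Erbb4, -0.46 to 0.12 for Nrg1 and -0.49 to 0.11 for Nrg4. For the difference between CA3 pyramidal and dentate granule nuclei the range was -0.23 to 0.90 for Nrg1 and -0.038 to 0.052 for Nrg3.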

Other observations

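Groups of nuclei outside the 17 classes ranked also had high Nrg1. Cluster 16, led by Npsr1, Pdzrn3 and Tshz2, met no class's markers and held 2754, 2366, 4025 and 2753 CPM, a range that overlapped deep-layer excitatory neurons. Cajal-Retzius neurons, the Reln-rich cells of the outer molecular layers, held 3786, 3679, 4321 and 3624 CPM of Nrg1, above every library of the 17 classes ranked, but had 18 nuclei in 1 library and were left out of the ranking. Cluster 18, led among others by Col6a1, Htr2c and Calcrl, held 724, 1020, 993 and 830 CPM of Nrg1, against 46.4 to 87.6 CPM in the nuclei named CA3. Its best-matching class was CA3, with 4 of 9 CA3 markers raised, too few for the name. It also had 9705 to 10125 CPM of Nrg3, a level above that of CA3. Mural nuclei had 79.5 to 176 CPM of Egfr with 9 to 17 nuclei in a library. No group of these was compared between genotypes.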
